A study of Homo sapiens with 3 samples.

Results

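Later intron EP300 peaks were defined as the peaks whose deposited annotation places them in the second or any following intron of a transcript, on chromosomes 1 to 22 and X. After rows with the same interval were joined, 9293 of 65276 peaks in replicate 1 (14.2%) and 9255 of 64896 peaks in replicate 2 (14.3%) met this rule, a mean share of 14.2% ± 0.0175 (SD, n = 2). Merging overlapping peaks that carried a later intron annotation in both replicates gave 5377 later intron regions, of 46263 regions of any class found in both replicates (11.6%). The peaks come from chromatin immunoprecipitation and sequencing (ChIP-seq) with an antibody against EP300 in H9, an established human embryonic stem cell line. The cells were wild type and naive, kept on mouse embryonic fibroblasts in PXGL, which is N2B27 medium with PD0325901, XAV939, Gö 6983 and human LIF at 10 ng/mL. Chromatin was fixed for 10 min in 1% formaldehyde, quenched by glycine (0.125 M, 5 min) and sonicated. There were 2 EP300 samples and 1 input sample, all of the same wild-type naive culture type, so no treated or mutant group enters any comparison. Whether the EP300 samples are separate cultures is not given, and their spread may be technical. Read depth is unknown, since the peak tables hold no read counts, and the input library was not analysed here.

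EP300 is a histone acetyltransferase and coactivator that transcription factors recruit to promoters and enhancers. It acetylates histone H3 at lysine 27, a mark of active enhancers, and its binding away from start sites is widely used to find enhancers. Introns of long genes can hold enhancers of the gene itself or of a neighbour, and can hold start sites of shorter transcripts of the same gene. In embryonic stem cells EP300 is recruited by pluripotency factors, among others. The annotation assigns a peak to a promoter before any intron when it lies within 3 kb of an annotated start, so later intron peaks lie over 3 kb from every start that the annotation used. Each peak was given 1 transcript and 1 intron, and the intron number depends on the transcript chosen.

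Although the authors' annotation placed no promoter there, 43 of the 5377 later intron regions (0.800%, Wilson 95% interval 0.594 to 1.08%) held a RefSeq start site in the table used here. The 250 bases before 5 of these starts are printed because they belong to long or strongly enriched genes and show how different the letters at such sites are. They are RefSeq sequences of build GRCh38.p14, each on the strand of its gene from 5′ to 3′, with every CpG in capitals. CAMTA1 (chr1:7679838-7680087, plus strand) encodes a calmodulin-binding transcription activator. PDE8B (chr5:77180054-77180303, plus strand) encodes a cyclic AMP phosphodiesterase. RAP1GAP2 (chr17:2853434-2853683, plus strand) encodes a GTPase-activating protein for RAP1. DAB1 (chr1:58250504-58250753, minus strand) encodes an adaptor of reelin signalling. CDH4 (chr20:61499171-61499420, plus strand) encodes R-cadherin.
CAMTA1: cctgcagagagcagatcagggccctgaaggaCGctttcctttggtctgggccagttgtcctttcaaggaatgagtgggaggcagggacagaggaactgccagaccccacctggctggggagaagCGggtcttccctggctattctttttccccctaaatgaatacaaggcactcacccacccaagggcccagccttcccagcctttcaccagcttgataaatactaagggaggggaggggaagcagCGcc
PDE8B: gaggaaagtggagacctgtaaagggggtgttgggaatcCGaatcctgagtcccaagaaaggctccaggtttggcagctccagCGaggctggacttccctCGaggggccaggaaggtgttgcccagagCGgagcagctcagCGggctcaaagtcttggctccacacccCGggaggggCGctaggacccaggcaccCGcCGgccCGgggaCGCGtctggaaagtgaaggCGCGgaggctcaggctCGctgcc
RAP1GAP2: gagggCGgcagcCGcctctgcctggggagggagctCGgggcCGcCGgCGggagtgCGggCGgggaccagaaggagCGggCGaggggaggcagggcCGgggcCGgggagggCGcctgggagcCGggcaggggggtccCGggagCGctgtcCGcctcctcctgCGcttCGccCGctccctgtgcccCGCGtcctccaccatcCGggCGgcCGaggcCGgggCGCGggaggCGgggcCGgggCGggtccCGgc
DAB1: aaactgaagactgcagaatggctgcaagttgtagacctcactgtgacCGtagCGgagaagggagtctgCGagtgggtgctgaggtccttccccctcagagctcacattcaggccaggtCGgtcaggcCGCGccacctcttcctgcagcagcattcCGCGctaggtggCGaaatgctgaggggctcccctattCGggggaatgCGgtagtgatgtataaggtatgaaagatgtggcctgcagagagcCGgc
CDH4: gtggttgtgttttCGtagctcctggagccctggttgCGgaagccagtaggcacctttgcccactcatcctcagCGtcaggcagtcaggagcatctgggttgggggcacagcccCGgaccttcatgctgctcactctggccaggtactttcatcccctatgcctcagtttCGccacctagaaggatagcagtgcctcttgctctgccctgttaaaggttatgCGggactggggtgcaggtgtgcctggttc
The CAMTA1 sequence holds 3 CpGs, CDH4 6, DAB1 12, PDE8B 15 and RAP1GAP2 32, so the starts inside later intron regions range from CpG-poor to CpG-dense.

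The CAMTA1 start lay in intron 11 of 22 of the host transcript, in the region chr1:7679300-7681497, where the fold enrichment was 33.1 in replicate 1 and 32.8 in replicate 2. Fold enrichment is the authors' own ratio at the summit of each peak, and it serves here only to describe and rank peaks within a list. The summits lay 401 bp downstream of the CAMTA1 start in replicate 1 and 389 bp downstream in replicate 2. The nearest start in the authors' own annotation was 13.3 kb away. In RAP1GAP2 the start lay in intron 3 of 25, with fold enrichments of 11.2 and 11.7 and summits 534 and 512 bp upstream. In DAB1 the start lay in intron 4 of 20, with fold enrichments of 11.6 and 11.1 and summits 406 and 388 bp downstream. The CDH4 start in intron 2 of 15 was the least enriched of the printed set, at 4.39 and 4.31, with summits 291 and 305 bp upstream. The PDE8B start lay in intron 3 of 23 of a host known only by its ID, with fold enrichments of 14.9 and 12.4 and summits 122 and 150 bp downstream. Of the 43 regions, 6 held a start of their own host gene, and besides CAMTA1, RAP1GAP2, DAB1 and CDH4 these were MAST3, which encodes a microtubule-associated kinase, and FNBP1, which encodes a membrane-bending protein. MAST3 had fold enrichments of 7.28 and 5.86, and FNBP1 had 5.61 and 7.01. PDE8B, RAP1GAP2, DAB1, MAST3 and FNBP1 were singled out after their values were seen.

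Regions with a start site stood higher and were wider at the median than the rest. Their median percentile, the lower of the percentiles of a region's fold enrichment in the 2 full peak lists, was 63.5, against 40.0 for the 5334 later intron regions without one. The median width was 1136 bp with a start and 915 bp without, and the part of width in this was not tested. A RefSeq start was held by 0.577% of first intron regions (0.365 to 0.910%), by 1.98% of distal intergenic regions (1.72 to 2.27%) and by 46.2% of promoter regions. The start sites in later intron regions numbered 49, of which 39 belonged to genes with LOC names. The start windows of the same gene or of nearby genes can overlap.

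The 300-bp windows at these 49 starts, from 250 bases before to 50 after each, had a median GC content of 59.0% and 9 CpGs. Windows at starts in promoter regions had 67.0% and 27 CpGs (n = 16770), and all 34683 windows had 58.7% and 14 CpGs. The observed over expected CpG ratio had a median of 0.365 in the later intron windows, 0.406 in distal intergenic regions, 0.542 in first intron regions, 0.833 in promoter regions and 0.579 over all windows. Distal intergenic windows were close to the later intron ones, at 60.3% GC and 10 CpGs (n = 227). Motifs were searched as exact letters on both strands. The GC box GGGCGG was found in 30.6% of the later intron windows (19.5 to 44.5%), against 72.5% in promoter regions and 44.96% of all windows. The CCAAT box CCAAT was found in 24.5%, against 30.1% in promoter regions and 34.6% of all windows. The AP-2 motif GCCNNNGGC was found in 20.4%, against 35.2% and 23.2% in the same sets. The E-box CACGTG was found in 16.3% (8.51 to 29.0%), against 9.71% and 7.22%. Distal intergenic windows held the GC box in 41.9%, the CCAAT box in 25.6%, the AP-2 motif in 24.7% and the E-box in 11.01%. First intron windows (n = 19) held them in 42.1%, 15.8%, 26.3% and 5.26%. The TATA box TATAAA was found in 10.2% of later intron windows, 6.61% of distal intergenic ones, 4.15% of promoter ones and 11.6% of all. The AP-1 site TGACTCA was found in 6.12%, 6.17%, 2.80% and 4.94% of the same sets. The octamer ATTTGCAT was found in 2.04%, 2.64%, 1.03% and 1.76%, and the YY1 core AAGATGGC in 2.04%, 1.32%, 4.33% and 2.89%. With 49 windows the intervals are wide, and a match describes the letters only. The windows lie in 43 regions and are not independent. On chromosome 10, LOC105378351 gave overlapping windows at starts 71005737, 71005752 and 71005760, each with a CCAAT box and a GC box. The intervals count such repeats as separate windows and are too narrow for that reason.

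Most later intron peaks were found in both replicates. In replicate 1, 5770 of 9293 later intron peaks (62.1%, 61.1 to 63.1%) overlapped a replicate 2 peak by at least 1 bp, against 74.5% of all peaks. In replicate 2, 5678 of 9255 (61.4%, 60.4 to 62.3%) overlapped a replicate 1 peak, against 73.9% of all peaks. The mean share was 61.7% ± 0.523 for later intron peaks and 83.8% ± 0.616 for promoter peaks (SD, n = 2 each).

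Later intron and distal intergenic peaks differed in this share, with later intron peaks lower in both replicates. In replicate 1 the shares were 62.1% of later intron peaks and 68.0% of distal intergenic peaks, a difference of -5.87 percentage points (-7.10 to -4.64) and an odds ratio of 0.772 (0.732 to 0.815). In replicate 2 they were 61.4% and 68.0%, a difference of -6.63 points (-7.86 to -5.39) and an odds ratio of 0.748 (0.708 to 0.789). By a two-sided Fisher's exact test, Benjamini-Hochberg adjusted over 4 comparisons, the p-values were 8.91e-21 in replicate 1 and 1.70e-25 in replicate 2. Against first intron peaks the difference passed the test in replicate 2 and not in replicate 1. In replicate 1, 62.1% of later intron peaks and 63.5% of first intron peaks were shared, a difference of -1.40 points (-3.02 to 0.236), which did not pass the test (adjusted p = 0.0943, Fisher's exact test). In replicate 2 the shares were 61.4% and 63.3%, a difference of -1.93 points (-3.57 to -0.287, adjusted p = 0.0285, Fisher's exact test). Among peaks with a -log10 q-value of at least 5 the replicate 2 difference from first intron peaks was -0.054 points, and the call was lost (unadjusted p = 0.979, Fisher's exact test). Peaks of 1 library are not independent replicates, so these intervals and p-values cover counting error only.

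Among later intron peaks the shared percent was higher where the fold enrichment was higher. Each full list was split by fold enrichment into 4 quartile groups of peaks of all classes, numbered 1 for the lowest to 4 for the highest. In replicate 1, 41.6% of later intron peaks in group 1 were shared, 55.1% in group 2, 82.5% in group 3 and 99.7% in group 4. In replicate 2 the shares were 39.6%, 54.3%, 84.9% and 99.5%. Of the later intron peaks, 10.4% in replicate 1 and 10.6% in replicate 2 fell in group 4, against 38.6% and 38.4% of promoter peaks. In that group the difference between later intron and distal intergenic peaks was 0.049 points in replicate 1 and -0.28 points in replicate 2, and neither passed the test (unadjusted p = 1 and p = 0.187, Fisher's exact test). Between 99.5% and 99.8% of the peaks of these classes were shared in group 4, which leaves almost no room for a difference. In groups 1 to 3, later intron peaks were shared less often than distal intergenic peaks in both replicates, with differences of -5.33 to -2.01 points, each with an unadjusted p of at most 0.0321 by Fisher's exact test. The reason for the difference was not tested.

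**Figure D1:**
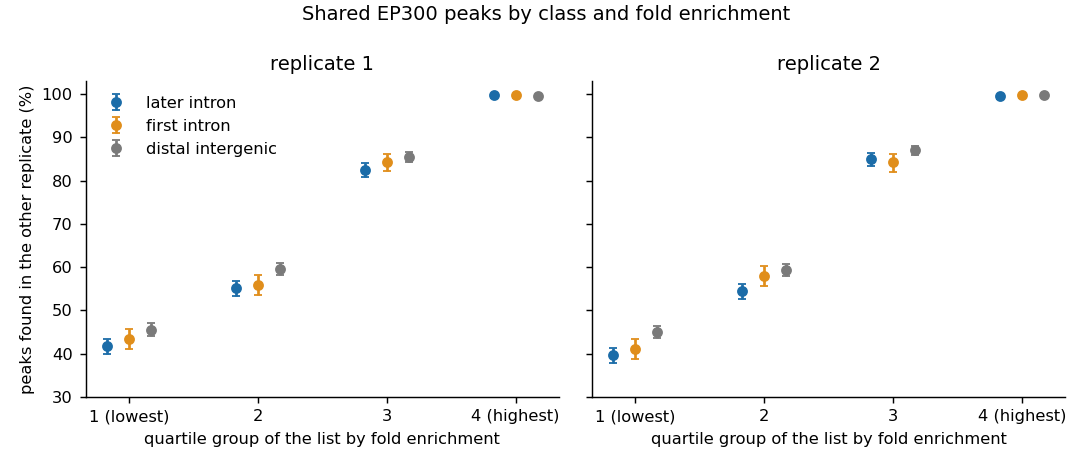
Share of peaks that overlap a peak of the other replicate (y axis, percent, with Wilson 95% intervals) by quartile group of fold enrichment (x axis) for later intron, first intron and distal intergenic peaks in each replicate. Later intron peaks run between 41.6% and 99.7% in replicate 1 and between 39.6% and 99.5% in replicate 2, and the 3 classes come together in group 4.

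The annotation follows position and shared peaks overlap, so a shared later intron peak and its partner mostly carry the same annotation by construction. Of the 5770 shared peaks in replicate 1, 5573 (96.6%) overlapped a replicate 2 peak in the same intron of the same transcript. In replicate 2 the count was 5543 of 5678 (97.6%). The remaining partners in replicate 1 were 55 promoter peaks and 142 peaks of other classes, and in replicate 2 they were 46 and 89. None was annotated to a first intron or to distal intergenic sequence.

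Later intron peaks were modest in height and width. The median fold enrichment was 3.97 in replicate 1 (quartiles 3.29 and 5.10) and 3.91 in replicate 2 (3.30 and 5.07). First intron peaks had medians of 3.95 and 3.94, distal intergenic peaks 4.09 and 4.13, and promoter peaks 5.67 and 5.71. Among later intron peaks, those found in both replicates had a median of 4.48 in replicate 1, against 3.47 for those found once, and in replicate 2 the medians were 4.51 and 3.45. The median width was 612 bp in replicate 1 and 637 bp in replicate 2, against 930 and 975 bp for promoter peaks. More than 1 summit was recorded in 9.84% of later intron peaks in replicate 1 and 9.58% in replicate 2, against 24.4% and 23.6% of promoter peaks. The later intron peaks covered 7.04 Mb in replicate 1 and 7.30 Mb in replicate 2.

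The annotation keeps every later intron peak over 3 kb from the starts it used. The median distance was 15.6 kb for later intron peaks in replicate 1 and 15.4 kb in replicate 2, against 10.92 and 10.96 kb for first intron peaks and 18.4 and 18.2 kb for distal intergenic peaks. The closest later intron peak lay 3004 bp from a start in replicate 1 and 3002 bp in replicate 2, just past that limit. About as many lay within 10 kb in both lists, 33.95% and 34.5%, and 14.1% lay over 50 kb away in each. The farthest was 334 kb from any start, and 321 peaks in replicate 1 and 312 in replicate 2 lay over 100 kb away.

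The second intron held the most members. Intron 2 held 3179 peaks in replicate 1 (34.2% of later intron peaks) and 3159 in replicate 2 (34.1%). Intron 3 held 20.7% in both replicates. Introns 4 to 5 held 17.6% and 17.1%, introns 6 to 10 14.7% and 14.9%, introns 11 to 20 9.56% and 9.75%, and intron 21 or beyond 3.17% and 3.45%. The last intron of the transcript held 21.3% of the peaks in each replicate. Transcripts of 2 introns, where any later intron is the last, held 7.40% of the peaks in replicate 1 and 7.49% in replicate 2. Among the peaks in transcripts of more than 3 introns, 10.9% lay in the last intron in each replicate. The highest intron numbers were 82 of 88 in DYNC2H1 (replicate 1), a dynein heavy chain gene, and 86 of 97 in HMCN2 (replicate 2), singled out after their values were seen.

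Intron number went with little change in height or sharing. The median fold enrichment lay between 3.97 in intron 2 and 3.88 in introns from 21 on in replicate 1, and between 3.94 and 3.83 in replicate 2. The share found in both replicates was 62.6% in intron 2 and 62.4% (56.7 to 67.7%) in introns from 21 on in replicate 1. In replicate 2 it was 62.1% in intron 2 and 58.0% (52.5 to 63.3%) in introns from 21 on. Introns 6 to 10 had 59.8% (57.2 to 62.4%) and 58.3% (55.7 to 60.9%). Just outside the rule, intron 1 had a median fold enrichment of 3.95 and 3.94 and shares of 63.5% and 63.3%, and just inside it, intron 2 had 3.97 and 3.94 and shares of 62.6% and 62.1%.

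**Figure D2:**
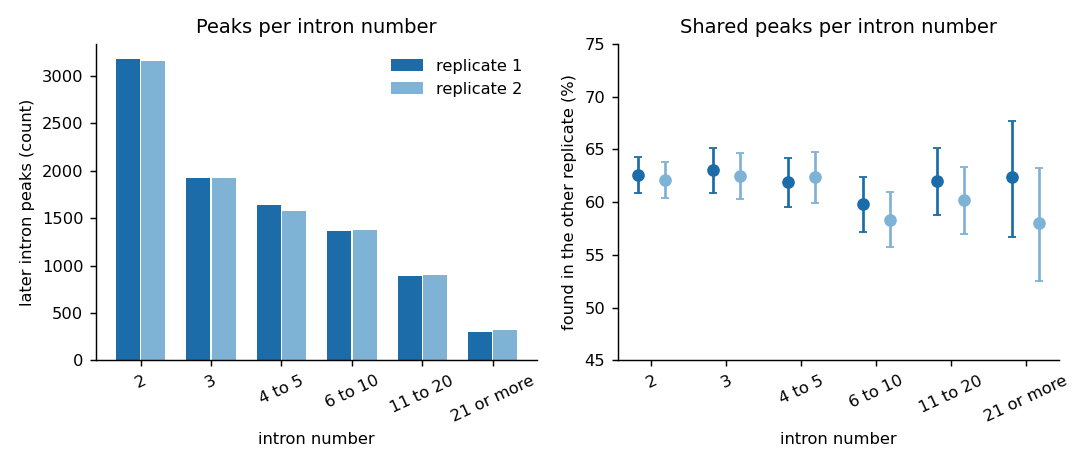
Number of later intron peaks (left, bars) and percent found in the other replicate (right, points with Wilson 95% intervals) by intron number in each replicate. In replicate 1, intron 2 holds 3179 peaks and introns from 21 on hold 295, while the shared percent stays between 59.8% and 63.0%.

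The 5377 later intron regions were ranked low among regions found in both replicates. Their median percentile was 40.1, against 56.5 over all 46263 regions. First intron regions also had a median of 40.1 and distal intergenic regions 44.5, while promoter regions had 69.5. The low rank was thus not particular to later introns. In the top decile of both lists stood 211 later intron regions (3.92%), against 5224 of all regions (11.3%). The peak names point to calling against input in each list, and whether 1 input library served both is not given. Among these regions, chosen because both lists hold them, the median absolute log2 ratio between replicates was 0.25, and 52 regions (0.967%) differed more than 2-fold. The summits of the replicates lay a median of 79 bp apart.

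**Figure D3:**
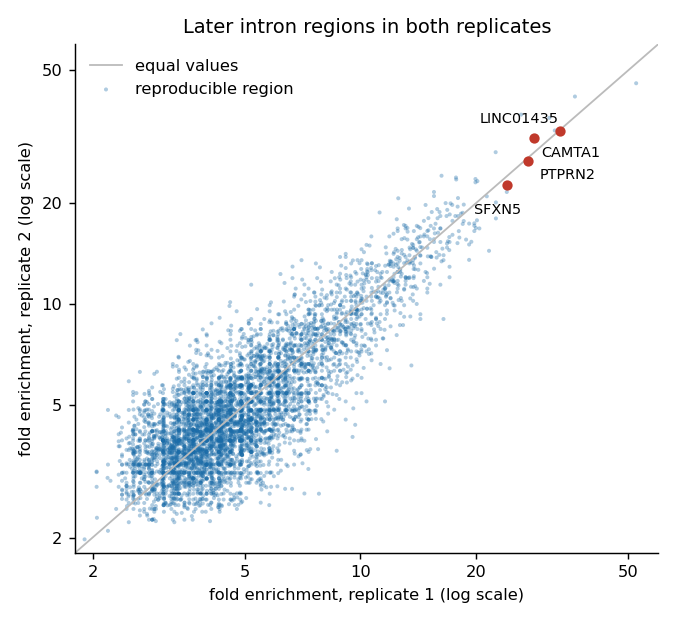
Fold enrichment of the 5377 later intron regions in the 2 replicates, on log axes. The points run along the diagonal of equal values, with CAMTA1 (33.1 and 32.8) and PTPRN2 (27.5 and 26.8) among the highest.

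The highest-ranked region lay in intron 3 of 5 of the host ENSG00000249335, which the files do not pair with a name. It spanned chr5:68919637-68922332 and had fold enrichments of 52.5 in replicate 1 and 45.8 in replicate 2. The next, in intron 4 of 4 of ENSG00000214719 (chr17:30665996-30670759), had 36.3 and 41.8. Both were far above the median later intron region, at 4.55 and 4.52. CLVS1, which encodes a lipid-binding protein of clathrin-coated vesicles, had 32.2 and 33.1 in intron 2 of 2. C5orf64 had 31.1 and 36.1, and the long noncoding RNA genes LINC01435, LY86-AS1 and LINC02641 had 28.4 and 31.5, 26.3 and 36.9, and 22.6 and 28.5. PTPRN2, which encodes a receptor-type phosphatase family member of dense-core vesicles, had 27.5 and 26.8 in intron 11 of 21 (chr7:157791299-157798350). SFXN5, a sideroflexin gene of mitochondria, had 24.1 and 22.7 in its last intron, 13 of 13. With the CAMTA1 region in intron 11 these are the 10 highest, and their summits lay 1 to 209 bp apart between replicates.

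The highest region with an intron number of 21 or more lay in intron 21 of 24 of DGKG, a diacylglycerol kinase gene, at chr3:186193342-186194746, with fold enrichments of 14.1 and 15.8. In introns 6 to 10 the highest had 17.98 and 20.7 (intron 7 of 15), in a host without a paired name.

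Many members shared a host. The 5377 regions lay in 2492 host genes, of which 1953 were paired with a name in the files and held 4399 regions (81.8%). Of the hosts, 1484 (59.6%) held 1 region, 488 held 2, 306 held 3 to 4, 162 held 5 to 9 and 52 held 10 or more. The hosts with 10 or more held 873 regions (16.2%). The regions fell in 3317 introns, and 916 introns with several regions held 2976 of them (55.3%), with a median gap of 3.17 kb between neighbours in an intron. Regions in 1 intron share a transcript and are not independent.

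PTPRN2 held the most, with 82 later intron regions in 6 introns of a gene of 1049 kb, or 7.82 regions per 100 kb. Replicate 1 had 120 peaks there and replicate 2 had 122. The regions' fold enrichments had a minimum of 2.34, a median of 4.55 and a maximum of 27.5 in replicate 1. In replicate 2 the minimum was 2.45, the median 4.56 and the maximum 26.8. Intron 11 held 26 of the regions over 214 kb, and introns 2 and 10 held 20 each.

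CAMTA1 held 43 regions over 7 introns, or 4.37 per 100 kb. Replicate 1 and replicate 2 had 68 peaks each in it. The fold enrichments ran from 2.57 to 33.1 in replicate 1, with a median of 3.88, and from 2.39 to 32.8 in replicate 2, with a median of 4.27. Intron 5 held 17 of the regions over 184 kb. The strongest after the one in intron 11 were in intron 6, with 15.9 and 18.1, and in intron 3, with 13.4 and 19.3. Of the 43, 3 ranked in the top decile of both lists.

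GSE1, which encodes a coiled-coil protein found with histone deacetylase corepressors, held 27 regions, all in intron 2 of 2 and spread over 262 kb. Their fold enrichments ran from 2.45 to 15.4 in replicate 1 (median 4.48) and from 2.60 to 18.8 in replicate 2 (median 4.68). PRDM16, a transcriptional regulator of brown fat and haematopoietic stem cells, held 26 regions (7.04 per 100 kb), 15 of them in intron 3, with maxima of 16.5 and 13.995. KCNQ1, a voltage-gated potassium channel gene of an imprinted locus, held 26 (6.43 per 100 kb), 12 of them in its last intron, with maxima of 12.3 and 11.8.

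The next hosts by count were 4 genes of cell adhesion, synapses or calcium entry and the desmosome-associated KAZN. CDH4 held 24 regions, 22 of them in intron 2 over 444 kb, with maxima of 10.5 and 7.32. SHANK2, a postsynaptic scaffold gene, held 23 with maxima of 9.99 and 10.1. DLGAP2, of the same scaffold, held 22 with maxima of 15.1 and 18.1. CACNA1C, which encodes the pore of an L-type calcium channel, held 22, 19 of them in intron 3, with maxima of 19.2 and 15.1. KAZN held 22 over 1225 kb (1.796 per 100 kb), with maxima of 7.14 and 6.87. These hosts, with PTPRN2, CAMTA1, GSE1, PRDM16 and KCNQ1 the 10 with most regions, each had a promoter region found in both replicates. The promoter of PRDM16 had 18.6 and 17.7 and that of SHANK2 15.5 and 13.4, while that of CAMTA1 had 4.97 and 6.17, below the gene's own intron 11 region.

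**Figure D4:**
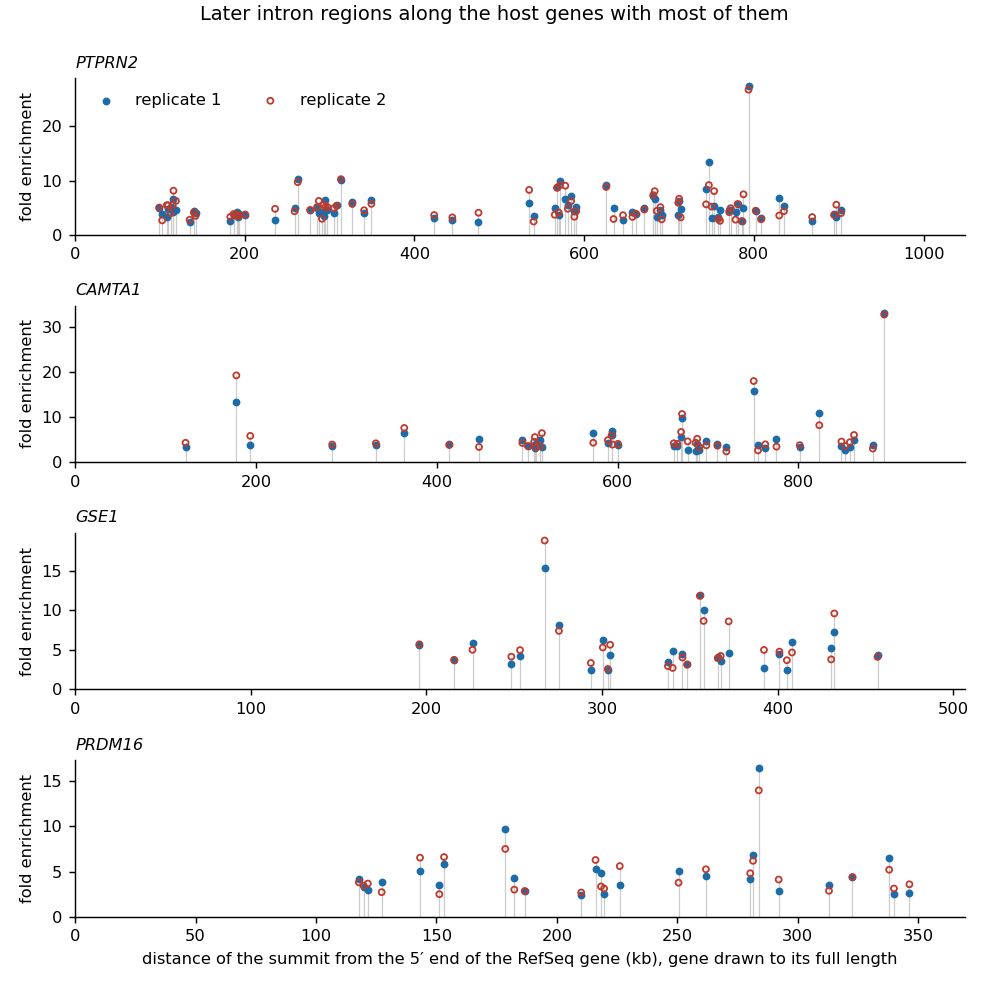
Later intron regions along the 4 host genes with most of them, by distance of the summit from the 5′ end of the RefSeq gene (x axis, kb) and fold enrichment in replicate 1 and replicate 2 (y axis, filled and open points). CAMTA1's strongest region, at 33.1 and 32.8, lies near the 3′ part of the gene. PTPRN2 holds 82 regions in 6 introns, from 99.1 to 903 kb of its 1049 kb, with few between 349 and 535 kb.

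Per length, short hosts come first by construction, since a minimum of 5 regions sets a high density for any short gene that passes. Among hosts with at least 5 regions inside the RefSeq gene, XG, a blood group antigen gene, had 12.4 regions per 100 kb (8 regions, maxima of 18.5 and 17.4). LMX1B, a LIM homeodomain transcription factor gene, had 11.5 per 100 kb, with all 10 regions in intron 2 and maxima of 11.2 and 10.3. ADGRA1, an adhesion G-protein-coupled receptor gene, had 11.4 per 100 kb from 5 regions of low height, none above 4.59 in replicate 1 or 4.64 in replicate 2. CA5A, a mitochondrial carbonic anhydrase gene, had 10.9, and BAHCC1, a chromatin protein gene, had 9.88 with maxima of 14.5 and 14.8. The median over the 169 such hosts with a RefSeq length was 2.62 per 100 kb.

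Longer genes held more members. Of 19970 RefSeq coding genes, 1455 (7.29%) hosted at least 1 later intron region. With the genes split into 4 quartile groups by length, 1175 of 4993 in the longest group did (23.5%), and 0 of 4992 in the shortest group, of at most 8.60 kb, did. The shortest genes have little room for a later intron over 3 kb from every start, so the rule largely fixes that 0. Among the 314 genes of 500 kb or more, 200 were hosts (63.7%, 58.2 to 68.8%). Per length there were 0.0625 regions per 100 kb in group 2 by length, 0.172 in group 3 and 0.314 in the longest group, with 0.272 over all coding genes. The genes of 500 kb or more, which are part of the longest group, had 0.360. The rule keeps regions over 3 kb from starts, which takes a larger part of short genes. Most hosts had a promoter region too. A region annotated to the gene's own promoter was found for 88.7% of hosts (87.0 to 90.3%), against 66.0% of non-hosts and 67.7% of all coding genes. In the longest group the shares were 89.3% of hosts and 80.6% of non-hosts.

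The host was often not the gene with the nearest start. It was the nearest for 52.9% of later intron peaks in replicate 1 (51.9 to 53.9%) and 53.1% in replicate 2 (52.1 to 54.1%). Of the 5377 regions, 2602 (48.4%) had another gene nearest, most often an ENSG identifier without a name (1151), then a pseudogene (575), a coding gene (350), a long noncoding RNA gene (281) or a microRNA gene (132). CAMTA1 was nearest to 1 of its 43 regions, while CAMTA1-AS1 was nearest to 15 and CAMTA1-IT1 to 6. PTPRN2 was nearest to 15 of 82, and PTPRN2-AS1 to 12. KCNQ1 was nearest to 9 of 26, and KCNQ1OT1 and KCNQ1-AS1 to 5 each. SHANK2 was nearest to 15 of 23 of its regions.

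The series' title concerns OGA. OGA, the gene of the enzyme that removes O-linked N-acetylglucosamine, OGT, the gene of the enzyme that adds it, and EP300 itself had 0 later intron peaks in either list, in genes of 33.995, 42.8 and 87.5 kb. Hosting a later intron region was uncommon among coding genes, at 7.29%, so a count of 0 in 3 genes says little about them.

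Of the 14 gene lists described here, synaptic and neural adhesion genes had the highest share of hosts. Of the 30 genes listed, 23 hosted a later intron region (76.7%, 59.1 to 88.2%), against 7.29% of all coding genes, with 270 regions. PTPRN2 held 82 of these, and the list was chosen with earlier results of these data known. The list's median gene length was 969 kb, and 21 of its 24 members of 500 kb or more hosted, against 200 of all 314 genes of that length. Its rate was 0.837 regions per 100 kb, and 0.603 without PTPRN2, against 0.360 for coding genes of 500 kb or more. Besides PTPRN2, CDH4, SHANK2 and DLGAP2, SDK1 held 17 regions, RBFOX3 16 and ROBO2 13. The list is wider than its name, since RBFOX3 and RBFOX1, which held 11, encode RNA-binding splicing regulators. The best region of RBFOX3 had 10.5 and 12.2, that of ROBO2 9.46 and 10.2 and that of SDK1 7.52 and 7.40.

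Of the Hippo pathway genes, 8 of 18 hosted (44.4%, 24.6 to 66.3%), against 7.29% of all coding genes and 23.5% of those in the longest group. The list's median gene length was 104 kb. TEAD1, the DNA-binding partner of YAP1, held 5 with a best of 6.81 and 6.34. STK3 followed with 2, and AMOTL1 and each of the other hosts held 1. The list's rate was 0.515 regions per 100 kb, and 0.355 without TEAD1, against 0.314 in the longest group. Of 23 cell junction and polarity genes, with a median length of 137 kb, 7 hosted (30.4%, 15.6 to 50.9%), a share whose interval includes that of the longest group. Among them were CTNNA1 with 5 regions, PARD3B with 3 and MAGI1 with 1, and MAGI1 reached 11.6 and 11.2.

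Of the signalling genes, hosts were 7 of 29 in FGF receptor, ERK and LIF signalling and 7 of 25 in WNT and TGF-β signalling. These shares, 24.1% (12.2 to 42.1%) and 28% (14.3 to 47.6%), stand beside 7.29% of all coding genes and 23.5% of the longest group, for lists with median gene lengths of 108 and 86.3 kb. PRKCA, a protein kinase C, held 10 regions with a best of 15.6 in both replicates, and RPS6KA2, a ribosomal S6 kinase, held 6. SMAD6, an inhibitor of BMP signalling, held 7, all in intron 3 of 3, with a best of 14.3 in replicate 1 and 9.02 in replicate 2, and TCF7L1 held 3 and BMPR1A 2. SMAD6 spans 80.6 kb, which gives 8.68 regions per 100 kb, but it was the nearest gene to 0 of its 7 regions. Both BMPR1A regions had the start of RPAP2P1 nearest.

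The pluripotency lists hosted at shares near the 7.29% of all coding genes. Of 23 naive pluripotency genes, 1 hosted (4.35%, 0.772 to 20.99%), ESRRB, an orphan nuclear receptor of the naive network, with 2 regions and a best of 3.26 and 4.96. Of 20 primed pluripotency genes, 2 hosted, TCF7L1, a WNT repressor that promotes exit from naive pluripotency, with 3 regions, and PTPRZ1 with 1 (2.79 to 30.1% for the list). Of 20 shared pluripotency genes, LIN28B, an RNA-binding protein gene, hosted 1 at 6.54 and 6.89 (0.888 to 23.6% for the list). These lists have short genes, with median lengths of 13.9, 9.18 and 16.7 kb. These medians fall in group 2 by length, of 8.60 to 24.2 kb, where 0.861% of coding genes hosted. The 7.29% is therefore not a background of matched length. The hosts themselves are long, with ESRRB at 191 kb, TCF7L1 at 177 kb, PTPRZ1 at 189 kb and LIN28B at 146 kb. Regions at the promoters were found for 18 of 23, 19 of 20 and 19 of 20 members of the same lists, against 67.7% of all coding genes.

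The remaining lists are read against the 7.29% of all coding genes that host and the 67.7% with a promoter region. Hosting rises with gene length, and 23.5% of the longest group, from 65.3 kb up, hosted. Of 20 corepressor and deacetylase genes, with a median length of 68.7 kb, 6 hosted (30%, 14.5 to 51.9%), an interval that includes 23.5%. They held 36 regions, 27 of them in GSE1, followed by HDAC4 with 4. Of 26 chromatin and DNA methylation genes, with a median length of 134 kb, 3 hosted (11.5%, 4.003 to 29.0%). That interval includes both 7.29% and 23.5%. DNMT3A, a de novo DNA methyltransferase, held 7 with a best of 8.10 and 8.50, KDM4B held 3 with a best of 9.42 and 12.2, and TET3 held 1. Among 18 coactivator and acetyltransferase genes, the acetyltransferase KAT2B alone hosted, with 1 region at 4.34 and 4.81 (5.56%, 0.988 to 25.8% for the list). This list's median length was 105 kb, and its interval also includes 7.29% and 23.5%. Of 19 trophectoderm and placenta genes, 3 hosted 1 region each, ELF5, GATA3 and TP63, and of 19 hypoblast and endoderm genes, 2 did, COL4A2 and GATA4. Their shares, 15.8% (5.52 to 37.6%) and 10.5% (2.94 to 31.4%), also have intervals that include 7.29%. Of the 19 fibroblast and mesenchyme genes, with a median length of 36.3 kb, COL5A1 alone hosted, with 2 regions (5.26%, 0.935 to 24.6% for the list). A promoter region was found for 12 of the 19, and both shares are near those of all coding genes. The feeders were mouse cells and the annotation is human, so this list is no check for feeder chromatin.

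**Figure D5:**
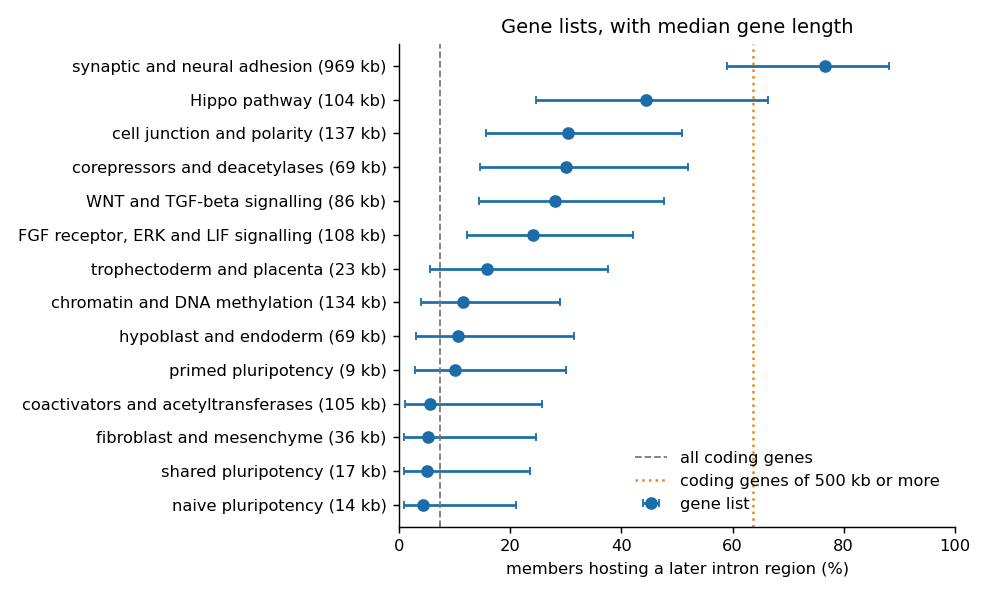
Share of each gene list that hosts a later intron region (x axis, percent, Wilson 95% intervals), with lines for all RefSeq coding genes at 7.29% and for those of 500 kb or more at 63.7%, and each list's median gene length beside its name. Synaptic and neural adhesion genes, at 76.7%, are the highest, and naive pluripotency genes, at 4.35%, the lowest.

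Later intron regions made up between 4.24% of the regions found in both replicates on chromosome 19 (3.50 to 5.12%) and 15.4% on chromosome 7 (14.02 to 16.9%), with 15% on chromosome 10, against 11.6% over all. Of the 365 on chromosome 7, PTPRN2 alone held 82. Regions in coding genes, per Mb of coding gene length, gave another order. Chromosome 22 had the most (4.40) and chromosome 4 the fewest (1.65), with 4.03 on chromosome 7 and 2.04 on chromosome 19. Within 5 Mb of chromosome ends, taken as the outermost RefSeq genes and without the short arms of chromosomes 13, 14, 15, 21 and 22, lay 987 later intron regions (18.4%), against 18.2% of all regions and 8.34% of coding gene length. Their median percentile was 30.5 there and 42.4 elsewhere, against 47.9 and 58.3 for all regions.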

How the data were processed

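EP300 ChIP-seq was deposited as 1 annotated peak table per EP300 sample, so peaks were called per sample. The submitters' processing notes name fastp 0.19.11 and the build GRCh38, with no role. The sources used here do not give the aligner, the caller, the calling threshold or the duplicate handling. Per the file headers, each row holds a signal value, taken as the fold enrichment ratio at the summit that the authors' caller gave. The deposited -log10 p-values and -log10 q-values are the caller's, per the file headers, and the deposited score was 10 times the -log10 q-value. Widths and distances are in bp as deposited. The annotation is ChIPseeker's, as the tables are named.

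Rows of the same interval were joined, keeping the row of the highest fold enrichment. Peaks of the 2 replicates that overlapped by 1 bp or more counted as shared and were merged into regions. A region was a later intron region if peaks of both replicates in it were so annotated. Host and intron came from the annotation text, nearest gene from the gene columns, and host names from the IDs and names paired in the files. RefSeq genes and start windows of GRCh38.p14 were matched by symbol and overlapping position. Shares have Wilson 95% intervals and differences Newcombe 95% intervals. Shared peaks were compared within each replicate by two-sided Fisher's exact tests, adjusted by Benjamini-Hochberg over 4 tests. The overlap and test steps were also run on simulated lists of evenly spaced peaks with independent sharing. Those lists lack the clustering of the real peaks, so that run bears on the code only. The tools were Python 3.11.15, pandas 2.3.3, numpy 2.4.6, scipy 1.17.1 and statsmodels 0.14.6.

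The text names the hosts of the 10 highest regions, the 10 hosts with most regions, the 5 with most per 100 kb, up to 3 members per list, the host of the highest region per intron class, and OGA, OGT and EP300. Further members of a list are named by their count or height and were chosen after their values were seen. The members and the 15 gene lists were chosen with earlier results of these data known. Results of 1 list and of some named genes are not reported here. Alternatives changed the threshold, the overlap, the intron minimum, the joining of summits, the annotation in both replicates, and the replicates. A genome sequence was not used here, so GC content and motifs at summits were not analysed.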

Additional observations from a re-analysis of the deposited data

How the results depend on the processing

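The share of later intron peaks found in both replicates (mean 61.7%) was 65.6% where -log10 q was 5 or more, 70.6% at a fold enrichment of at least 5, 65.2% with each summit row kept, 59.3% where the overlap had to reach 50% of the shorter peak and 45.9% where summits had to lie within 200 bp. The 5377 regions became 2717 and 1615 under the q-value and fold thresholds and 3509 from intron 3 on. With 1 replicate left out, which drops the need for a partner, there were 9255 to 9293 peaks. The 2492 hosts became 1632 and 1131 under those thresholds. The share with the host as nearest gene (53.0%) was 52.1% and 50.8% under them and 51.0% from intron 3 on. In replicate 2 the difference from first intron peaks (-1.93 points) was no longer called in quartile groups 1 (-1.45), 3 (0.747, reversed) and 4 (-0.33) of fold enrichment, with -log10 q of 5 or more (-0.054), or in any quartile group of peak width (0.640, reversed, -0.98, -1.52 and 0.239, reversed). Splitting by peak width was chosen after seeing the data. The difference from distal intergenic peaks was lost in quartile group 4 of fold enrichment (0.049, reversed, in replicate 1 and -0.28 in replicate 2) and of width (-0.72 and -0.45), and in replicate 2 in group 1 of width (-2.02). It kept its direction and call in the other alternatives. In group 4 of fold enrichment nearly all peaks of these classes are shared, which leaves little room for a difference, and the other groups hold fewer peaks. Beyond that the cause was not tested. No paired analysis was possible because the series has 1 EP300 group. Read depth, which is unknown, limits how far unshared peaks can be read as absent.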

Other observations

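Of the later intron regions, 1 covered the microRNA gene MIR3085, in the last intron, 11 of 11, of CRTAC1, a gene for a secreted extracellular matrix protein. It lay at chr10:97875627-97876176 and had fold enrichments of 5.55 in replicate 1 and 3.598 in replicate 2, at percentile 28.2. The mature sequences, from RefSeq GRCh38.p14 on the minus strand with the seed (bases 2 to 8) in capitals, are printed because the region covers them.
hsa-miR-3085-3p: uCUGGCUGcuauggcccccuc
hsa-miR-3085-5p: aGGUGCCAuucugagggccaggagu

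On sequences not placed on a chromosome, the lists held 45 peaks in replicate 1 and 42 in replicate 2, of which 1 in each was in a later intron. RFLNA, a gene of the refilin family of actin-binding regulators, held 18 later intron regions, of which 2 lay inside its RefSeq extent of 26.9 kb, so it was given no density. It was singled out after its values were seen.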
